A study of Caenorhabditis elegans with 20 samples.

Results

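Wild-type *Caenorhabditis elegans* (strain N2) fed curcumin were compared with wild-type worms fed only the vehicle, DMSO. The comparison took 10 of the 20 arrays of the series, chosen by strain and treatment alone: 5 arrays of worms grown on 100 µM curcumin from the egg until day 3, and 5 arrays of worms grown on 0.1% DMSO over the same time. The curcumin plates held the same 0.1% DMSO, since curcumin was added from a DMSO stock. Each array carried RNA of whole worms, an independent replicate of many pooled animals, so a change in a tissue's share of the body and a change of RNA per cell cannot be told apart. The remaining 10 arrays were of *ahr-1(ju145)* worms, which carry a mutant aryl hydrocarbon receptor and got the same treatments. They enter only where the strains are set side by side. The study asked which genes respond to curcumin and whether they need this receptor.

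Curcumin is the yellow polyphenol of turmeric. Animals handle such foreign compounds in steps: cytochrome P450 enzymes oxidise them, transferases attach a sugar or glutathione, and ABC transporters pump the products out of the cell. In the worm much of this takes place in the intestine, the tissue that also secretes C-type lectins, lysozymes and CUB-domain proteins when the animal meets a pathogen.

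Values are the authors' log2 values per probe set, so a difference of 1 is a doubling. A level is comparable between arrays but not between probe sets. Of 29317 probe sets, 25546 carry a single gene symbol, and only these are named. The test was limma with the replicate number as a block, a design that compares each curcumin array with the DMSO array of the same number, and probe sets passed at a Benjamini-Hochberg adjusted p under 0.1. The data bore out this pairing only in part. The deviations from the group means of same-numbered arrays correlated at 0.064, 0.100, 0.383, 0.356 and 0.334 in replicates 1 to 5. Arrays of unlike number correlated at −0.06 on average. However, replicate 5 of curcumin correlated more with replicate 1 of DMSO (0.378) than with its own partner. The adjusted p without the block is therefore given wherever it changes a call. Each of the 10 arrays had a mean correlation to the rest of its group of 0.990 to 0.993, a measure that mostly reflects level differences between probe sets. The interquartile range of an array's deviations from the probe set medians was 0.165 to 0.217.

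Few probe sets passed. With the block, 26 probe sets were higher in curcumin-treated worms (0.0887% of all tested) and 7 were lower (0.0239%). Of these 33, 30 belong to named genes, 23 higher and 7 lower. All 33 moved the same way in all 5 pairs, which passing a paired test on these same pairs favours. The share of all probe sets that did so was not counted. In 23 of the 33 the curcumin and DMSO arrays did not overlap. That separation was seen in 0.634% of all probe sets with curcumin higher and in 0.365% with curcumin lower. Without the block 22 probe sets were higher (0.075%) and 2 lower (0.00682%), and 18 passed in both fits. At an unadjusted p under 0.05, called nominal hereafter, 4.33% of all probe sets were higher and 4.65% lower, and the median change of all probe sets was 0.00 on the log2 scale. When 1 pair was left out, 3 to 19 probe sets passed, and 3 to 16 of these were among the 33. *pgp-1*, *ZK742.3* and *H43E16.1* passed whichever pair was left out. Without pair 4, *cyp-35A2*, *irg-5* and *pud-4* passed of the 7 lower genes, and *fat-7* and *cyp-35C1*, which had not passed with all pairs, passed lower as well (adjusted p = 0.0141 and 0.0249). No probe set passed lower without pair 1, 2, 3 or 5.

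The largest change was in *pgp-1*, on chromosome IV, which encodes a P-glycoprotein, an ABC transporter that expels foreign compounds from cells. Its log2 values were 9.44, 9.10, 9.33, 8.81 and 8.89 in curcumin replicates 1 to 5, against 6.36, 6.45, 6.36, 6.47 and 6.24 in DMSO replicates 1 to 5. Every curcumin array lay far above every DMSO array, and the DMSO arrays were tightly grouped. The mean was 9.11 ± 0.27 with curcumin and 6.38 ± 0.09 with DMSO (SD, n = 5 each), a 6.67-fold rise with a log2 change of 2.74 ± 0.11 (SE, adjusted p = 0.00069). *pgp-1* passed in all 29 alternatives to the fit, with an adjusted p of at most 0.0348.

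No other ABC transporter passed. Of 48 measured ABC transporter genes, 8 were nominally higher (16.7%, against 4.33% of all probe sets) and 2 nominally lower (4.17%), and the median log2 change of the list was 0.06, against 0.00 for all probe sets. The mean level over the family, *pgp-1* included, was 6.15 to 6.42 with curcumin and 6.13 to 6.24 with DMSO. It was higher with curcumin in all 5 pairs, but in pair 5 only at 6.149 against 6.134. The median change of the list in pair 5 was −0.08, so the family as a whole did not rise in every pair. *mrp-3*, of the multidrug resistance protein family, differed by 0.59 (adjusted p = 0.185). The P-glycoproteins *pgp-3* and *pgp-9* differed by 0.35 and 0.37 (adjusted p = 0.309 and 0.337).

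**Figure D1:**
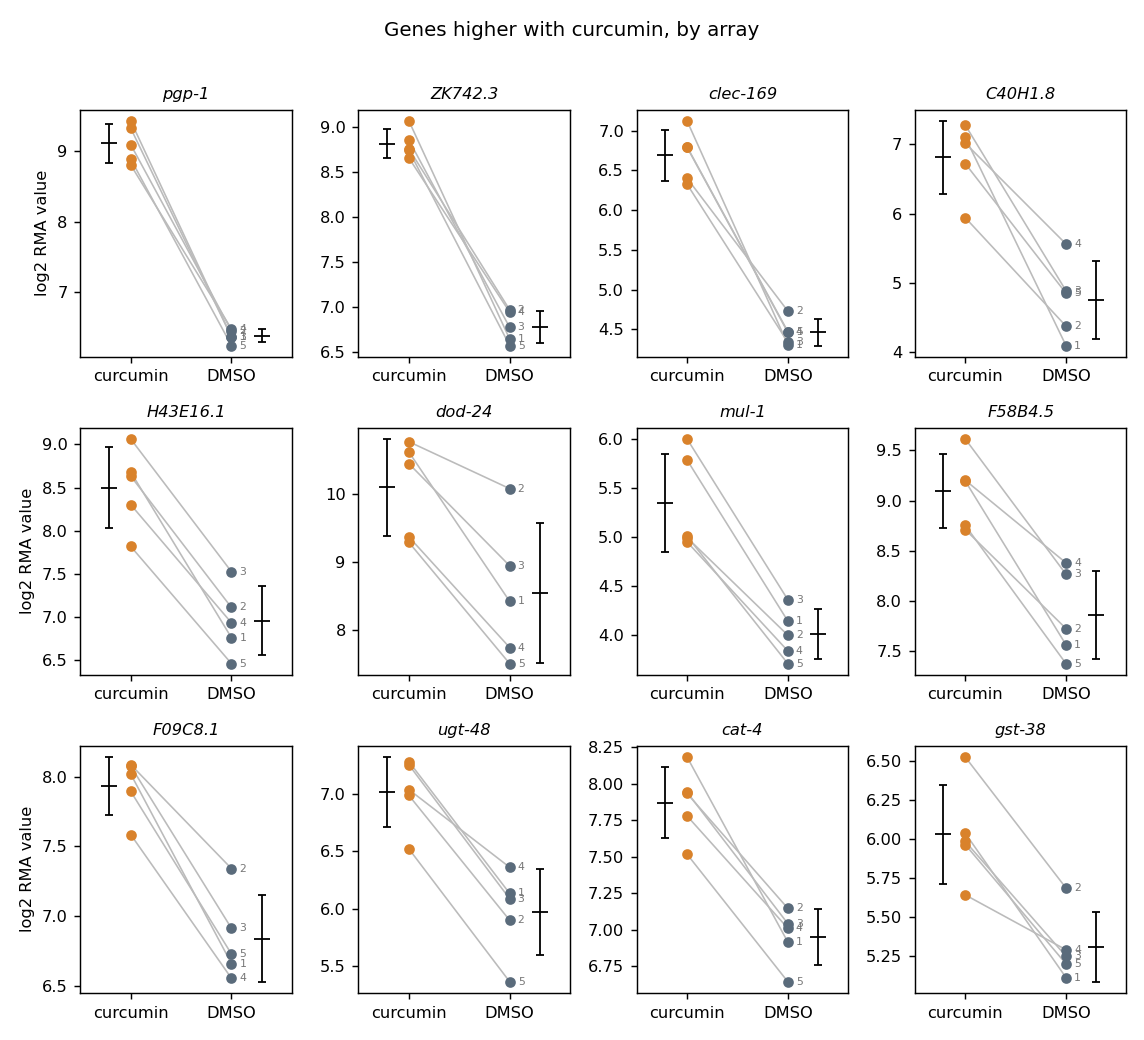
Log2 RMA values (vertical axis) of 12 genes in the 5 curcumin arrays (orange, left) and the 5 DMSO arrays (grey, right) of wild-type worms, with grey lines joining arrays of the same replicate number and black bars for the mean and SD. The axes do not start at 0 and differ between panels. In *pgp-1*, *ZK742.3* and *clec-169* the groups are far apart, and in *dod-24* and *gst-38* they overlap although all 5 lines slope the same way.

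Among the conjugating enzymes, 1 UDP-glucuronosyltransferase and 1 glutathione S-transferase rose. *ugt-48*, which belongs to the enzymes that attach a sugar to small molecules, had log2 values of 7.28, 6.99, 7.26, 7.04 and 6.52 in curcumin replicates 1 to 5, against 6.13, 5.90, 6.09, 6.36 and 5.37 in DMSO replicates 1 to 5. The groups did not overlap, and replicate 5 was the lowest of both. The change was 2.07-fold (log2 1.05 ± 0.09 SE, adjusted p = 0.0228, and 0.161 without the block). *ugt-9* missed the threshold narrowly with the block and passed narrowly without it. Its values were 6.33 to 6.78 with curcumin and 5.82 to 6.04 with DMSO, without overlap (log2 change 0.56, adjusted p = 0.101 with the block and 0.0998 without).

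Of the 67 measured UDP-glucuronosyltransferase genes, *ugt-48* alone passed with the block. Nominally, 13 were higher (19.4%) and 6 lower (8.96%), with a list median of 0.07. The lower end was held by *ugt-57*, at 6.14 with curcumin and 6.96 with DMSO (log2 difference −0.82, adjusted p = 0.289). *ugt-29* and *ugt-45* differed by 0.39 and 0.30 and did not pass (adjusted p = 0.156 and 0.457).

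*gst-38* encodes a glutathione S-transferase, of the enzymes that couple glutathione to reactive compounds. Its log2 values were 6.04, 6.52, 5.98, 5.64 and 5.96 in curcumin replicates 1 to 5, against 5.11, 5.69, 5.25, 5.29 and 5.20 in DMSO replicates 1 to 5. The ranges overlapped only through replicate 2 of DMSO, whose partner was the highest curcumin array. The change was 1.65-fold (log2 0.72 ± 0.09 SE, adjusted p = 0.0856), and it did not pass without the block (adjusted p = 0.328).

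*gst-4*, widely used as a reporter of the oxidative stress regulator SKN-1, had values of 8.18, 8.15, 8.44, 7.24 and 7.23 in curcumin replicates 1 to 5, against 6.20, 6.77, 6.99, 6.93 and 6.67 in DMSO replicates 1 to 5. All curcumin arrays lay above all DMSO arrays, by much in replicates 1, 2 and 3 and by little in replicates 4 and 5. Its mean log2 difference was 1.14 ± 0.23 (SE), and with that spread between pairs it did not pass (adjusted p = 0.231). *gst-6* (0.86, adjusted p = 0.168), *gst-30* (0.72, adjusted p = 0.190) and *gst-18* (0.54, adjusted p = 0.103) were likewise higher in all 5 pairs without passing.

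Over the 48 measured glutathione S-transferase genes, 16 were nominally higher (33.3%) and 1 lower (2.08%), and the median was 0.14. A list of 27 SKN-1 and glutathione genes, which shares many of these members, had 14 higher (51.9%) and none lower at that level and a median of 0.21, the farthest from 0 of all 48 lists measured. With adjustment over all probe sets *gst-38* was its only call. *gcs-1*, which makes the first step of glutathione synthesis, was at 9.18 with curcumin and 9.0 with DMSO (log2 difference 0.18, adjusted p = 0.482). The mRNA of *skn-1* itself was at 9.08 with curcumin and 9.05 with DMSO.

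**Figure D2:**
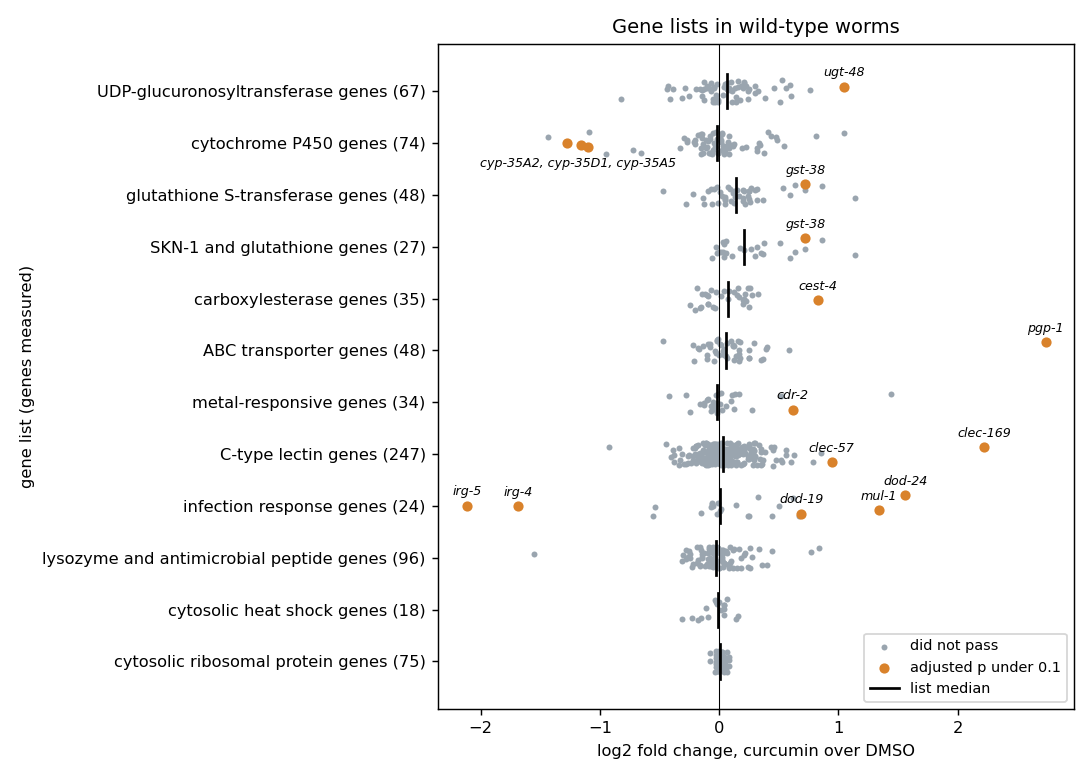
Log2 fold change of curcumin over DMSO (horizontal axis) for each measured gene of 12 gene lists (rows, with the number of genes), with genes past an adjusted p of 0.1 in orange and named, other genes in grey and a black bar at each list's median. Medians lie between −0.03 and 0.21, while *pgp-1*, *clec-169*, *irg-4* and *irg-5* stand far from their own lists.

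Another 2 genes of compound handling rose. *cest-4*, a member of the carboxylesterase family of ester-cleaving enzymes, was at 7.23 ± 0.25 with curcumin and 6.40 ± 0.23 with DMSO (SD, n = 5 each), a 1.78-fold change (adjusted p = 0.0838). Its arrays did not overlap, at 6.85 to 7.47 with curcumin and 6.16 to 6.67 with DMSO. *slc-17.5*, of a solute carrier family that moves organic anions, was at 6.31 ± 0.19 with curcumin and 5.65 ± 0.20 with DMSO (1.59-fold, adjusted p = 0.0838, and 0.137 without the block). Each was the only gene of its list to pass, among 35 carboxylesterase genes (median 0.07) and 33 solute carrier genes (median 0.04).

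Cytochrome P450 genes, which act earlier in the same chain, gave no gene that rose and 3 that fell, all of the *cyp-35* subfamily of intestinal enzymes and all on chromosome V. *cyp-35D1* had 4.02, 4.21, 4.19, 4.43 and 4.00 in curcumin replicates 1 to 5, against 5.00, 5.13, 5.06, 5.90 and 5.53 in DMSO replicates 1 to 5. *cyp-35A5* had 4.60, 4.47, 4.35, 5.10 and 4.45 in curcumin replicates 1 to 5, against 5.49, 5.41, 5.53, 5.91 and 6.14 in DMSO replicates 1 to 5. In both genes every curcumin array lay below every DMSO array. *cyp-35D1* was 2.23-fold lower (log2 change −1.16 ± 0.12 SE, adjusted p = 0.0485) and *cyp-35A5* 2.15-fold lower (−1.10 ± 0.13 SE, adjusted p = 0.0706), and both also passed without the block.

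*cyp-35A2* behaved differently from pair to pair. It had 4.87, 5.28, 4.73, 7.03 and 6.16 in curcumin replicates 1 to 5, against 6.23, 6.66, 6.53, 7.60 and 7.42 in DMSO replicates 1 to 5. Replicates 4 and 5 were the highest of both groups, so the ranges overlapped while each curcumin array lay below its DMSO partner. The change was −1.28 ± 0.16 (SE, adjusted p = 0.0812, and 0.691 without the block). *cyp-35C1* also had replicates 4 and 5 highest in both groups, and its difference of −1.09 did not pass (adjusted p = 0.129).

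The subfamily was not uniform. *cyp-35A3* differed by −0.94 and *cyp-35A4* by −0.66 without passing (adjusted p = 0.341 and 0.555), while *cyp-35A1*, the immediate neighbour of *cyp-35A2*, was dim and had 3.05 with curcumin and 2.95 with DMSO. Next to *cyp-35A5* lie *cyp-35B1*, *cyp-35B2* and *cyp-35B3*, whose differences were −0.27, −0.07 and −0.14. Cross-hybridisation between such close relatives was not tested. Over all 74 measured P450 genes, 9 were nominally higher and 9 nominally lower (12.2% each), and the median was −0.02. *cyp-13A5* and its neighbour *cyp-13A6* ended at opposite extremes of the family, with differences of 1.05 and −1.44, and neither passed (adjusted p = 0.223 and 0.165).

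**Figure D3:**
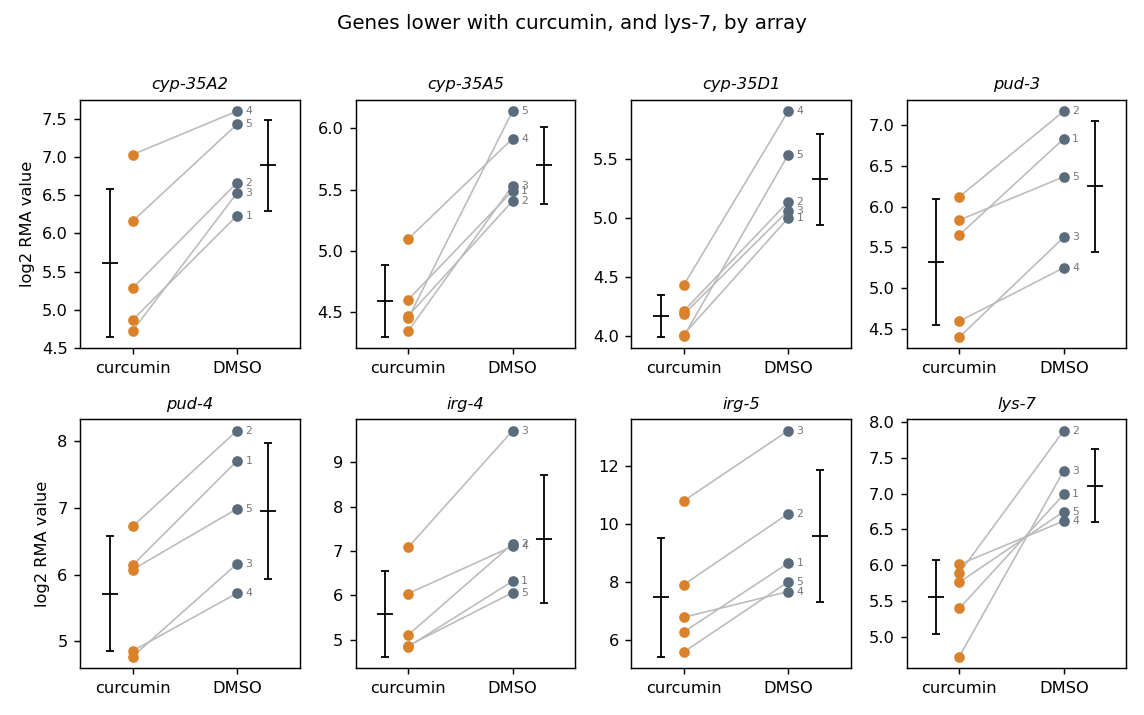
Log2 RMA values (vertical axis) of the 7 genes that were lower with curcumin, and of *lys-7*, in the 5 curcumin arrays (orange, left) and 5 DMSO arrays (grey, right), with lines joining arrays of the same replicate number and black bars for the mean and SD. The axes do not start at 0 and differ between panels. All 5 lines of *pud-3*, *pud-4*, *irg-4* and *irg-5* slope the same way over a wide range of levels although their steepness differs, the line of pair 4 in *irg-5* being the flattest of that gene, and the lines of *lys-7* cross.

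Metal-responsive genes gave 1 call. *cdr-2*, named for its induction by cadmium, had 4.58, 4.72, 5.63, 5.37 and 4.54 in curcumin replicates 1 to 5, against 3.88, 4.22, 4.91, 4.82 and 3.95 in DMSO replicates 1 to 5. The pair differences were close to each other, and the level of both groups was highest in replicates 3 and 4. The change was 1.53-fold (log2 0.62 ± 0.07 SE, adjusted p = 0.0504), and without the block it was lost in that spread (adjusted p = 0.792). Its neighbours *cdr-6* and *cdr-3* differed by −0.03 and 0.11. The relatives *cdr-4* and *cdr-1* differed by 0.52 and −0.28, each the same way in all 5 pairs, without passing (adjusted p = 0.385 and 0.519).

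*numr-1*, which encodes a nuclear protein induced by metals, had 5.50, 4.70, 5.92, 4.63 and 4.71 in curcumin replicates 1 to 5, against 3.58, 3.98, 3.49, 3.53 and 3.67 in DMSO replicates 1 to 5. The groups did not overlap, but the curcumin arrays split into 2 high and 3 lower values. The log2 difference of 1.44 ± 0.24 (SE) did not pass with the block (adjusted p = 0.132) and passed narrowly without it (0.0998). The adjacent paralogue *numr-2* was dim and differed by −0.02. The metallothioneins *mtl-1* and *mtl-2* differed by −0.10 and −0.42 (adjusted p = 0.890 and 0.580). The list of 34 metal-responsive genes had a median of −0.02.

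Genes of secreted defence proteins changed in both directions. *clec-169*, one of many C-type lectin genes, whose products bind sugars and many of which respond to infection, had 7.12, 6.40, 6.33, 6.79 and 6.80 in curcumin replicates 1 to 5, against 4.31, 4.73, 4.34, 4.46 and 4.47 in DMSO replicates 1 to 5. The groups were far apart. The change was 4.67-fold (log2 2.22 ± 0.15 SE, adjusted p = 0.0069), and the call was kept in 27 of 29 alternatives, with an adjusted p of 0.196 when pair 5 was left out.

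*clec-169* lies in a run of lectin genes on chromosome IV. *clec-166*, with 3 genes between them, was higher without overlap, at 5.24 to 5.53 with curcumin and 4.58 to 5.13 with DMSO, and just missed the threshold (log2 difference 0.52, adjusted p = 0.101). *clec-167* differed by 0.79 (adjusted p = 0.317), while *clec-168* and *clec-170* differed by 0.12 and −0.20. Differences along the run were therefore uneven. *clec-57*, on chromosome V, was at 7.13 ± 0.18 with curcumin and 6.18 ± 0.21 with DMSO (SD, n = 5 each), without overlap (1.92-fold, adjusted p = 0.0838). Of 247 measured C-type lectin genes these 2 passed, 42 were nominally higher (17%) and 10 lower (4.05%), and the median was 0.03.

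*mul-1* encodes a mucin-like protein that rises in infected worms. Its values were 5.79, 4.99, 6.0, 4.95 and 5.01 in curcumin replicates 1 to 5, against 4.14, 3.99, 4.36, 3.83 and 3.70 in DMSO replicates 1 to 5. Replicates 1 and 3 were the highest in both groups, which did not overlap. The change was 2.54-fold (log2 1.34 ± 0.11 SE, adjusted p = 0.0228).

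*dod-24*, which encodes a CUB-domain protein and is named as a gene downstream of DAF-16, the transcription factor that insulin signalling holds back, had 10.62, 10.77, 10.45, 9.37 and 9.29 in curcumin replicates 1 to 5, against 8.42, 10.08, 8.95, 7.74 and 7.51 in DMSO replicates 1 to 5. The DMSO arrays spread over more than 2 log2 units and replicate 2 of DMSO lay above 2 curcumin arrays. The change was 2.95-fold (log2 1.56 ± 0.19 SE, adjusted p = 0.0797, and 0.630 without the block). *dod-19*, of the same class by name, was at 9.91 ± 0.21 with curcumin and 9.22 ± 0.30 with DMSO (SD, n = 5 each), without overlap (1.61-fold, adjusted p = 0.0539, and 0.341 without the block). *dod-17* differed by 0.67 in the same direction and did not pass (adjusted p = 0.124), and *irg-8*, the neighbour of *dod-19*, differed by 0.24. The class did not move together. *dod-18* and *dod-20* differed by 0.08 and 0.17, and *dod-3*, *dod-6*, *dod-22* and *dod-23* by −0.11, −0.23, −0.06 and −0.06, and none of them passed.

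Against these, 2 infection response genes fell. *irg-5*, which encodes a CUB-domain protein, had 6.27, 7.90, 10.79, 6.77 and 5.57 in curcumin replicates 1 to 5, against 8.64, 10.35, 13.22, 7.66 and 8.0 in DMSO replicates 1 to 5. Its level varied widely between arrays of 1 group, with an SD of 2.05 with curcumin and 2.28 with DMSO, and replicate 3 was the highest of both groups. The pairs differed by −2.38, −2.45, −2.42, −0.89 and −2.42, so that 4 pairs agreed closely and pair 4 gave less. The change was −2.11 ± 0.23 (SE), or 4.32-fold lower (adjusted p = 0.0504). Without the block the spread between arrays covered it (adjusted p = 0.835).

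*irg-4*, also a CUB-domain gene, followed the same arrays. It had 4.84, 5.11, 7.08, 6.04 and 4.86 in curcumin replicates 1 to 5, against 6.32, 7.16, 9.72, 7.11 and 6.06 in DMSO replicates 1 to 5. Replicate 3 was again the highest of both groups. The change was −1.69 ± 0.22 (SE), or 3.22-fold lower (adjusted p = 0.0879, and 0.769 without the block). *dct-17*, another CUB-domain gene, lies with 1 gene between it and *irg-5* and moved the other way. Its values were 6.39, 6.95, 7.15, 6.37 and 5.68 in curcumin replicates 1 to 5, against 4.84, 6.21, 5.72, 5.68 and 4.76 in DMSO replicates 1 to 5. The ranges overlapped, and the change was 2.1-fold upward (log2 1.07 ± 0.14 SE, adjusted p = 0.0992, and 0.630 without the block).

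In the list of 24 infection response genes, 3 rose (*mul-1*, *dod-19* and *dod-24*) and 2 fell (*irg-4* and *irg-5*), with a median of 0.01. Nominally, 9 were higher (37.5%) and 4 lower (16.7%). Among 96 lysozyme and antimicrobial peptide genes none passed, 10 were nominally higher and 6 nominally lower, and the median was −0.03. Of these the lysozyme gene *lys-7* had the largest difference. It had 5.40, 5.89, 4.72, 6.01 and 5.76 in curcumin replicates 1 to 5, against 6.99, 7.88, 7.32, 6.62 and 6.75 in DMSO replicates 1 to 5. All curcumin arrays were below all DMSO arrays, by 2.60 in pair 3 and by 0.61 in pair 4. With this spread the log2 difference of −1.55 ± 0.27 (SE) did not pass (adjusted p = 0.143 with the block and 0.155 without).

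*pud-3* and *pud-4* are neighbours on chromosome V and take their name from proteins that are more abundant when insulin signalling through DAF-2 is reduced. *pud-4* had 6.14, 6.72, 4.77, 4.85 and 6.08 in curcumin replicates 1 to 5, against 7.71, 8.16, 6.16, 5.72 and 6.99 in DMSO replicates 1 to 5. *pud-3* had 5.65, 6.12, 4.40, 4.59 and 5.83 in curcumin replicates 1 to 5, against 6.83, 7.17, 5.62, 5.25 and 6.37 in DMSO replicates 1 to 5. In both genes replicates 3 and 4 were the lowest of each group. *pud-4* was 2.36-fold lower (log2 change −1.24 ± 0.12 SE, adjusted p = 0.0382) and *pud-3* 1.90-fold lower (−0.93 ± 0.12 SE, adjusted p = 0.0838). Without the block neither passed (adjusted p = 0.778 and 0.805). The list of 28 insulin and DAF-16 genes held 2 that rose, *dod-19* and *dod-24*, and had a median of 0.01. *sod-3*, a superoxide dismutase gene under DAF-16 control, was at 4.62 with curcumin and 4.54 with DMSO.

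*cat-4* encodes GTP cyclohydrolase, which starts the synthesis of tetrahydrobiopterin, the cofactor of the hydroxylases that make dopamine and serotonin. Its values were 8.18, 7.93, 7.94, 7.78 and 7.52 in curcumin replicates 1 to 5, against 6.91, 7.15, 7.04, 7.01 and 6.64 in DMSO replicates 1 to 5. The groups did not overlap, and the change was 1.89-fold (log2 0.92 ± 0.09 SE, adjusted p = 0.0382, and 0.0598 without the block). *ptps-1*, the next enzyme of the pathway, was at 6.47 with curcumin and 6.16 with DMSO (adjusted p = 0.373). *qdpr-1* and *pcbd-1*, which recycle the cofactor, differed by 0.02 and −0.02. The hydroxylase genes *tph-1* and *cat-2* and the decarboxylase gene *bas-1* differed by 0.11, −0.08 and 0.10 and did not pass.

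Several genes with large rises carry only a sequence name in the annotation used. *ZK742.3*, on chromosome V, had 9.07, 8.76, 8.86, 8.66 and 8.74 in curcumin replicates 1 to 5, against 6.64, 6.97, 6.77, 6.94 and 6.57 in DMSO replicates 1 to 5. The groups were well apart, at 8.82 ± 0.16 with curcumin and 6.78 ± 0.18 with DMSO (SD, n = 5 each). The change was 4.11-fold (adjusted p = 0.0029), and it passed in all 29 alternatives, with an adjusted p of at most 0.0649.

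*H43E16.1*, on chromosome II, had 8.68, 8.63, 9.06, 8.30 and 7.82 in curcumin replicates 1 to 5, against 6.76, 7.11, 7.52, 6.93 and 6.46 in DMSO replicates 1 to 5. Levels of the 2 groups went together by number, with replicate 3 the highest and replicate 5 the lowest of each. The change was 2.92-fold (log2 1.54 ± 0.10 SE, adjusted p = 0.0045, and 0.0849 without the block). *C40H1.8*, on chromosome III, had 7.10, 5.94, 7.27, 7.01 and 6.72 in curcumin replicates 1 to 5, against 4.10, 4.38, 4.89, 5.56 and 4.85 in DMSO replicates 1 to 5. The groups did not overlap but pairs differed in size, by 3.00 in pair 1 and 1.45 in pair 4 (4.15-fold, log2 2.05 ± 0.22 SE, adjusted p = 0.0504).

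*F58B4.5* rose 2.35-fold (log2 1.23 ± 0.12 SE, adjusted p = 0.0382, and 0.161 without the block), at 8.71 to 9.61 with curcumin and 7.38 to 8.38 with DMSO. *F09C8.1*, an orthologue of human phospholipase B1, rose 2.14-fold (log2 1.09 ± 0.10 SE, adjusted p = 0.0228), at 7.59 to 8.09 with curcumin and 6.55 to 7.34 with DMSO. Neither gene's groups overlapped.

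The other named genes that rose did so by less. *pcp-3*, of the prolyl carboxypeptidase-like proteases, was at 10.30 ± 0.20 with curcumin and 9.55 ± 0.22 with DMSO (SD, n = 5 each, 1.68-fold, adjusted p = 0.0504), and its neighbour *pcp-2* differed by 0.60 without passing (adjusted p = 0.128). *plpp-1.2*, a phospholipid phosphatase gene, was at 6.28 ± 0.12 with curcumin and 5.73 ± 0.14 with DMSO (1.47-fold, adjusted p = 0.0797). *Y49E10.18* (1.62-fold), *rcd-1* (1.61-fold) and *C39H7.4* (1.48-fold) rose as well, each without overlap between the groups. Their adjusted p values were 0.0663, 0.0996 and 0.0838, and *Y49E10.18* did not pass without the block (0.210). The 3 probe sets without a symbol rose 1.48-fold to 1.91-fold.

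Without the block 6 named genes passed that had not passed with it. These were *ugt-9*, *numr-1*, *T19C9.8* (log2 change 0.97), *ZK185.5* (0.67), *B0035.13* (0.53) and *F42G4.5* (0.47). In all 6 the curcumin arrays lay above the DMSO arrays without overlap, and the adjusted p with the block was 0.101 to 0.139. Without the block it was 0.0849 for *T19C9.8*, 0.0626 for *ZK185.5*, 0.0920 for *B0035.13* and 0.0849 for *F42G4.5*. Just inside and outside the threshold the values thus lay close together. The last named gene to pass with the block, *rcd-1*, had an adjusted p of 0.0996, and *ugt-9* and *clec-166*, which missed it, had 0.101.

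The 30 named genes were spread unevenly over the chromosomes. Chromosome V held 16 of them (53.3%), and 23.9% of the measured genes. Chromosome IV held 8 (26.7%, against 15.3% of the measured genes), chromosome II held 3, chromosome III held 2, chromosome X held 1 and chromosome I held none. Some of these are relatives in clusters, such as *pud-3* and *pud-4*, so they are not independent of each other.

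Several processes often tied to stress held no gene that passed. Of 18 cytosolic heat shock genes 1 was nominally lower and none higher (median −0.01). Of 24 endoplasmic reticulum stress genes none was past that level in either direction (median −0.03). Among 15 mitochondrial unfolded protein response genes 1 was higher (median 0.08). Proteasome genes (33 measured, median −0.01), respiratory chain genes (41, median 0.03) and cytosolic ribosomal protein genes (75, median 0.01) had none past it. The superoxide, peroxide and thioredoxin genes had 3 of 27 higher (11.1%) and none lower.

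Lipid metabolism genes gave no call among 141 measured. The lipase gene *lipl-1* was at 7.20 with curcumin and 6.32 with DMSO (log2 difference 0.88, adjusted p = 0.265). *fat-7*, a stearoyl-CoA desaturase gene, was at 7.07 with curcumin and 8.04 with DMSO (−0.97, adjusted p = 0.132). The acyltransferase gene *oac-14*, of another list of 55 genes, had 6.17 to 7.08 with curcumin and 4.61 to 5.74 with DMSO without overlap, and it did not pass (1.25, adjusted p = 0.135). The gene of the receptor itself, *ahr-1*, was at 5.00 ± 0.14 with curcumin and 5.13 ± 0.21 with DMSO (SD, n = 5 each), a log2 difference of −0.12 with a 95% interval of −0.39 to 0.15.

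Markers of tissue and stage were measured on the same arrays, since worms that differ in growth would differ in them. The mean level of 14 intestine markers was 8.90 to 9.18 with curcumin and 8.85 to 9.13 with DMSO, and it was higher with curcumin in all 5 pairs. Only 8 of the 14 had a log2 difference above 0. Nominally, 7 of the 14 were higher (50%) and 1 lower, among them the peptide transporter gene *pept-1* (log2 difference 0.54, adjusted p = 0.133) and *cpr-1* (−0.50, adjusted p = 0.289). The mean of 84 early embryo genes was 5.28 to 5.59 with curcumin and 5.38 to 5.64 with DMSO, lower with curcumin in pairs 1 to 4 and higher in pair 5.

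Of the early embryo genes 12 were lower and 5 higher, and of 17 histone genes 5 were lower (29.4%) and none higher at that level. Of 179 molting and apical matrix genes 27 were lower (15.1%) and 8 higher, with *lpr-4* at −1.0 (adjusted p = 0.289). None of these genes passed. Germline genes (47, median 0.02), oocyte and eggshell genes (44, median 0.01) and sperm genes (54, median 0.00) had at most 2 members past that level. The part of worm stage or tissue share in the calls was not tested. The covariate that follows shows only how the calls change with the level of early embryo genes, and these genes may themselves respond to curcumin.

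With the mean of the early embryo genes as a covariate only *pgp-1*, *ZK742.3* and *H43E16.1* passed. The covariate also takes a degree of freedom from a fit that has 4. The log2 change of *pgp-1* was 2.67 with the embryo covariate. How the calls change with the mean of the intestine markers was not tested.

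**Figure D4:**
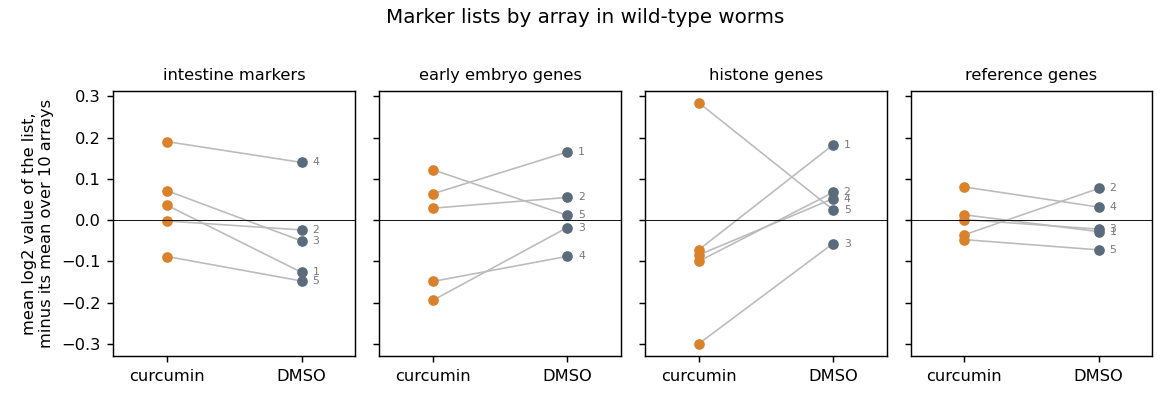
Mean log2 value of 4 gene lists on each array, minus the list's mean over the 10 wild-type arrays (vertical axis), for curcumin (orange, left) and DMSO (grey, right), with lines joining arrays of the same replicate number. The mean of the intestine markers is higher with curcumin in all 5 pairs. The mean of the early embryo genes is lower with curcumin in pairs 1 to 4 and higher in pair 5.

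The genes that passed in wild-type worms were set beside their values in *ahr-1(ju145)* worms, with replicate 5 of curcumin left out in that strain as the study's methods do, which leaves 4 pairs. All 33 probe sets differed in the same direction in the mutant, and the share of all probe sets that did so was not counted. *pgp-1* was at 8.96 with curcumin and 6.70 with DMSO in *ahr-1(ju145)* worms, a change of 2.28 ± 0.09 on the log2 scale (SE, adjusted p = 0.0023), and it alone of the 33 passed there. In that strain 2 probe sets passed higher (0.00682%) and none lower (0%).

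The difference of the curcumin change between the strains was tested for each probe set. None passed (0%) at an adjusted p under 0.1 by limma, with 1317 at an unadjusted p under 0.05 and a lowest adjusted p of 1.0, and none passed with all 20 arrays or without the block. *F09C8.1* differed between curcumin and DMSO by 1.09 in wild-type worms, against 1.14 in *ahr-1(ju145)* worms, and the wild-type minus mutant difference had a 95% interval of −0.36 to 0.27. *cyp-35D1* differed by −1.16 in wild-type worms, against −1.2 in *ahr-1(ju145)* worms (interval of the difference −0.69 to 0.78).

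Smaller differences between curcumin and DMSO in the mutant were measured for *slc-17.5* (0.67 in wild-type, 0.26 in *ahr-1(ju145)* worms), *C39H7.4* (0.57 in wild-type, 0.21 in *ahr-1(ju145)* worms) and *gst-38* (0.72 in wild-type, 0.31 in *ahr-1(ju145)* worms). The 95% intervals of their differences were 0.16 to 0.67, 0.12 to 0.60 and 0.14 to 0.69 before any adjustment for the number of probe sets, and none of them passed with it. All genes compared here, *pgp-1* included, were chosen because they passed in wild-type worms. That choice favours a larger change in wild-type worms, so these intervals cannot decide whether the strains differ. Of the 33 chosen probe sets, 5 had an unadjusted p under 0.05 for the strain difference by limma, against 1317 of all 29317. The rise of *pgp-1* was 0.45 larger in wild-type worms (interval 0.12 to 0.79, adjusted p = 1.0).

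**Figure D5:**
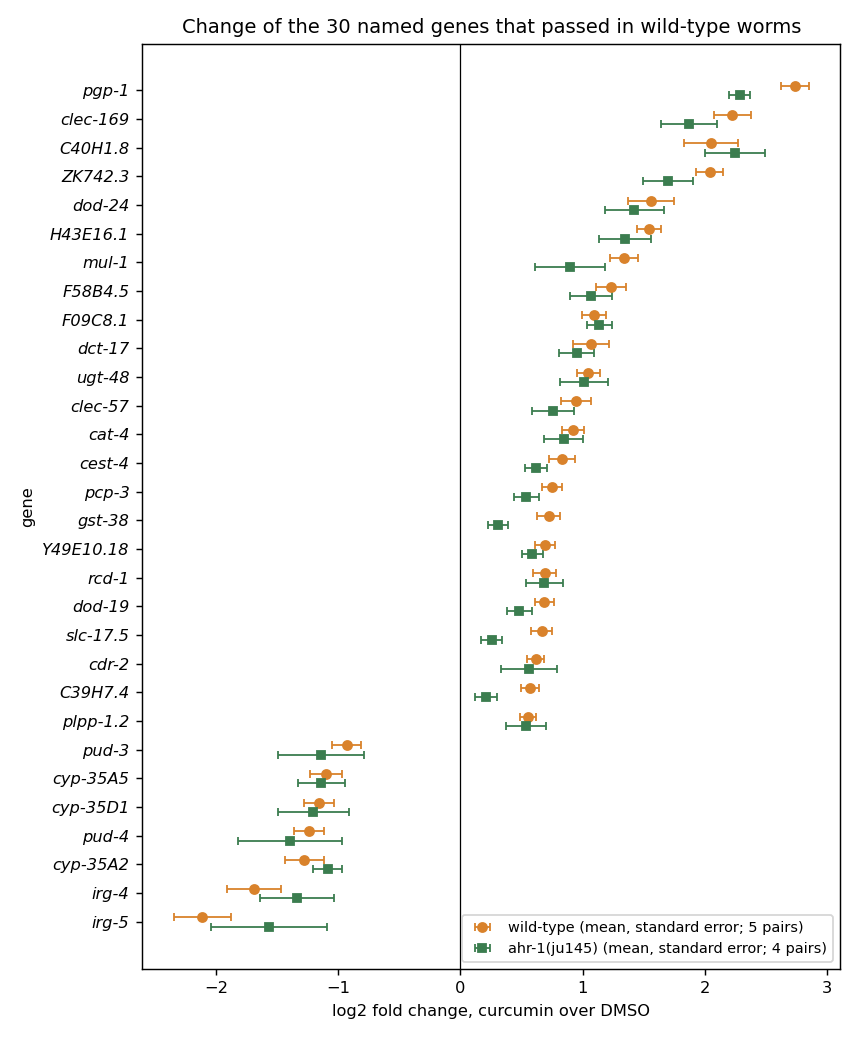
Log2 fold change of curcumin over DMSO (horizontal axis) with its standard error for the 30 named genes that passed in wild-type worms, ordered by size, in wild-type (orange circles, 5 pairs) and *ahr-1(ju145)* worms (green squares, 4 pairs). All 30 genes lie on the same side of 0 in both strains, from −2.11 for *irg-5* to 2.74 for *pgp-1* in wild-type worms.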

How the data were processed

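RNA of whole worms was hybridised to Affymetrix C. elegans Gene 1.0 ST arrays. The values are the authors' log2 values per probe set, deposited after RMA (background correction, quantile normalization and probe summary, with oligo in R). The authors' deposited tables of fold changes, p-values and scores were not used. The annotation's genome build was not given in the sources used here, so no coordinates are printed. Gene names came from the platform annotation, and 25495 of 25546 probe sets with 1 symbol were found in the RefSeq gene table of WBcel235. For a gene with more than 1 probe set, the one with the highest mean stands for it. Values of 769 probe sets equal those of another.

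All 29317 probe sets were fitted with limma 3.58.1 in R 4.3.3, with treatment and replicate number (4 residual and 3.46 prior degrees of freedom) and Benjamini-Hochberg adjustment at the study's threshold of 0.1. Replicate numbers come from the sample titles, and no source states that they mark a shared batch. They paired 3 of 5 pairs at a correlation over 0.1. The block was kept because the comparison was defined with it, and the fit without it is given beside. On 10 simulated arrays with 200 of 29317 probe sets changed, the fit with the block recovered 60% of changes of 0.5 and 92% of changes of 1, and 10.8% of its calls were unchanged probe sets. The fit without the block recovered 50% and 90%, and 0.588% of its calls were unchanged. Noise there was independent between probe sets, unlike on the real arrays. The simulation was a single draw and took its pair effects from the fit with the block, so it assumed the pairing and cannot decide between the fits.

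The genes named are those that passed in either fit, members of lists, and relatives of genes that passed, chosen after their values were seen. The comparison and the lists were chosen with earlier results of these data known, and lists are described by counts and medians with no test. Catechol O-methyltransferase genes had no probe set named here. Array number limits the precision. Promoter and protein sequences were not used here.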

Additional observations from a re-analysis of the deposited data

Results flagged for a closer look

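Of 47 genes followed by array in both groups of 5 (94 sets of 5 values), 1 set held an array far from the others by Dixon's criterion of 0.710, which chance exceeds in about 5% of sets. The glutathione S-transferase gene *gst-18* was at 4.58 in replicate 3 of DMSO, against 3.99 to 4.14 in the other DMSO arrays. Replicate 3 was also the highest curcumin array of *gst-18*, at 5.15. No difference between the strains passed a test.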

How the results depend on the processing

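No probe set that passed changed direction under any alternative, but the counts depended on the fit, and many adjusted p values lay close to the threshold. The counts of probe sets are given as higher and lower, against 26 and 7. They were 22 and 2 with no replicate block, 37 and 3 with the block as a random effect, 39 and 3 in 19 arrays of 4 groups without a block, 39 and 4 in 20 arrays, and 88 and 29 in 19 arrays with the block. They were 45 and 10 after a further quantile normalization, 136 and 50 with an intensity trend and robust moderation in limma, 42 and 11 with array weights, 82 and 25 without dim probe sets, 67 and 19 over probe sets with 1 symbol alone, and 9 and 2 at a threshold of 0.05. Centring arrays on their medians gave 33 and 10, and a log2 change of at least 0.5 kept all. Leaving out a pair or a single array gave 3 to 17 higher and 0 to 21 lower, the most being without replicate 4 of DMSO and without the block (17 and 21). Of alternatives added after seeing the data, identical probe sets counted once gave 45 and 11, and the embryo covariate 3 and 0. A covariate intended as the intestine marker mean gave 10 and 2, but it was not taken over those 14 genes. Of the 33, 15 were lost without the block, and none was lost under array weights, either further normalization, or the trend with robust moderation. The cause of these shifts was not tested. The pairing by replicate number is a hint from the data in part: 3 of 5 curcumin arrays and 4 of 5 DMSO arrays correlated best with their own number.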

Other observations

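The protease genes of the lysosome and gut held no gene that passed among 28 measured, with 7 nominally higher (25%) and 3 nominally lower (unadjusted p under 0.05). *asp-8*, an aspartyl protease gene, was at 6.10 with curcumin and 5.42 with DMSO (log2 difference 0.67, adjusted p = 0.103), and the cysteine protease gene *cpz-1* was at 9.65 with curcumin and 10.01 with DMSO, without overlap (−0.35, adjusted p = 0.267). *cth-1*, a cystathionine gamma-lyase gene that makes cysteine, was at 5.24 with curcumin and 5.79 with DMSO, also without overlap (−0.55, adjusted p = 0.129).

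The saposin-like gene *spp-18* was at 7.59 with curcumin and 6.75 with DMSO without overlap (0.84, adjusted p = 0.156). Of 271 nuclear hormone receptor genes 19 were nominally higher (7.01%) and 8 lower (2.95%), and none passed. Neuropeptide genes had 8 of 109 higher and 3 lower, with a median of 0.06.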
